A study of Sus scrofa with 5 samples.

Results

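The genes described here are 9 genes of transforming growth factor beta (TGF-beta) signalling, read in single cells of pig skin: the ligands TGFB1, TGFB2 and TGFB3, the receptors TGFBR1, TGFBR2 and TGFBR3, the activin subunit INHBA, the antagonist GREM1 and the matrix protein TGFBI. They were taken by symbol from the deposited gene lists, where each matched 1 of 20286 gene identifiers: TGFB1 (ENSSSCG00000003017), TGFB2 (ENSSSCG00000010816), TGFB3 (ENSSSCG00000002385), TGFBR1 (ENSSSCG00000005382), TGFBR2 (ENSSSCG00000011226), TGFBR3 (ENSSSCG00000006911), INHBA (ENSSSCG00000035077), GREM1 (ENSSSCG00000033657) and TGFBI (ENSSSCG00000014316). The rule itself uses symbols and no measured values, but the 9 genes were chosen with earlier results of these data known. Counts of these genes set beside shares of all genes are therefore descriptions. The genome build behind the files is not given in the sources used here, so no positions are printed.

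TGF-beta ligands are secreted in a latent complex and must be released from it before they can signal. The active ligand binds the type II receptor kinase TGFBR2, which recruits and phosphorylates the type I receptor kinase TGFBR1, and TGFBR1 in turn phosphorylates SMAD proteins that move to the nucleus. TGFBR3, also called betaglycan, is a co-receptor without a kinase of its own that presents ligand, TGFB2 in particular. INHBA encodes the subunit from which activin A is built, a related ligand with its own receptors. GREM1 encodes gremlin, a secreted protein that binds and blocks bone morphogenetic proteins (BMPs), and TGFBI encodes a secreted matrix protein named for its induction by TGF-beta. In skin the pathway is known for driving matrix production and contractile behaviour of fibroblasts during repair and scarring.

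The study placed split-thickness skin grafts on full-thickness wounds in pigs. Grafts were either left untreated or treated with a hydrogel carrying a focal adhesion kinase (FAK) inhibitor, with dressings changed every other day, and were taken at day 7 or day 90. Unwounded pig skin was the reference. Each of the 5 groups was 1 library: untreated graft day 7, FAK inhibitor graft day 7, untreated graft day 90, FAK inhibitor graft day 90 and unwounded skin. Several pigs took part in the study, but how many stand behind each library, and their age or breed, are not stated in the labels.

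Because a group is 1 library, the spread between replicates is unknown and no p-value could be computed. Differences are therefore described by size: a gene counted as higher or lower in a cell class when its level differed at least 1.5-fold between 2 libraries, among genes with at least 10 CPM in either library and at least 20 UMIs in both together. CPM is the number of unique molecular identifiers (UMIs) of a gene per 1000000 UMIs, after adding up all cells that a library has of that class. Intervals are at 95%, exact, and cover counting error only. The share of all genes above the same floor that met the 1.5-fold rule is given beside the first count in each comparison.

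The libraries held 1542 to 8653 cells after filtering, 26842 in all, with 17728262 to 73152734 UMIs. Clustering without the 9 genes gave 29 clusters, of which 26 took the name of 1 of 13 cell classes from fixed marker lists. Fibroblast-like cells numbered 1407, 1414, 2100, 790 and 260 in the order of groups above, and all 12 fibroblast markers were detected in the fibroblast-like cells of the untreated graft of day 7. That is no independent check, since the clusters were named from these markers. All 12 also had a UMI in the mast-like and keratinocyte-like clusters. These markers, collagens among them, took up 104415, 83644, 205009, 254303 and 276308 CPM of the fibroblast-like sums in the same order, so that the room left for all other genes differed between libraries. Some cell barcodes occurred in more than 1 library, up to 152 between the inhibitor graft of day 90 and unwounded skin (8.07% of the smaller library). With those barcodes left out, 37 of 37 called differences were still called; these were the 32 in fibroblast-like cells and the 3 and 2 between inhibitor and untreated grafts in pericyte or smooth muscle-like and endothelial-like cells. The other comparisons of the latter classes were not recomputed in this way.

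Each gene had its own distribution over cell classes. TGFB1 was highest in mast-like cells, at 536 to 856 CPM over the 5 libraries, and lay between 151 and 366 CPM in the T or NK-like, myeloid-like, dendritic-like and lymphatic endothelial-like cells of every library with at least 50 such cells. Blood endothelial-like cells held 144 to 188 CPM of TGFB1, and fibroblast-like cells only 23.2 to 59.9 CPM. TGFB2 was read in the structural classes, at 75.1 to 149.7 CPM in fibroblast-like, 72.0 to 109.5 CPM in lymphatic endothelial-like and 45.4 to 76.1 CPM in the class of pericytes and smooth muscle, called mural-like from here on. In T or NK-like and myeloid-like cells TGFB2 did not exceed 1.63 and 5.48 CPM. TGFB3 was highest in mural-like cells in every library, at 235 to 343 CPM, and reached 70.7 CPM at most in fibroblast-like cells. The 3 ligand genes thus peaked in 3 different cell classes in the grafts of day 7, TGFB1 in mast-like, TGFB3 in mural-like and TGFB2 in fibroblast-like or lymphatic endothelial-like cells.

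**Figure D1:**
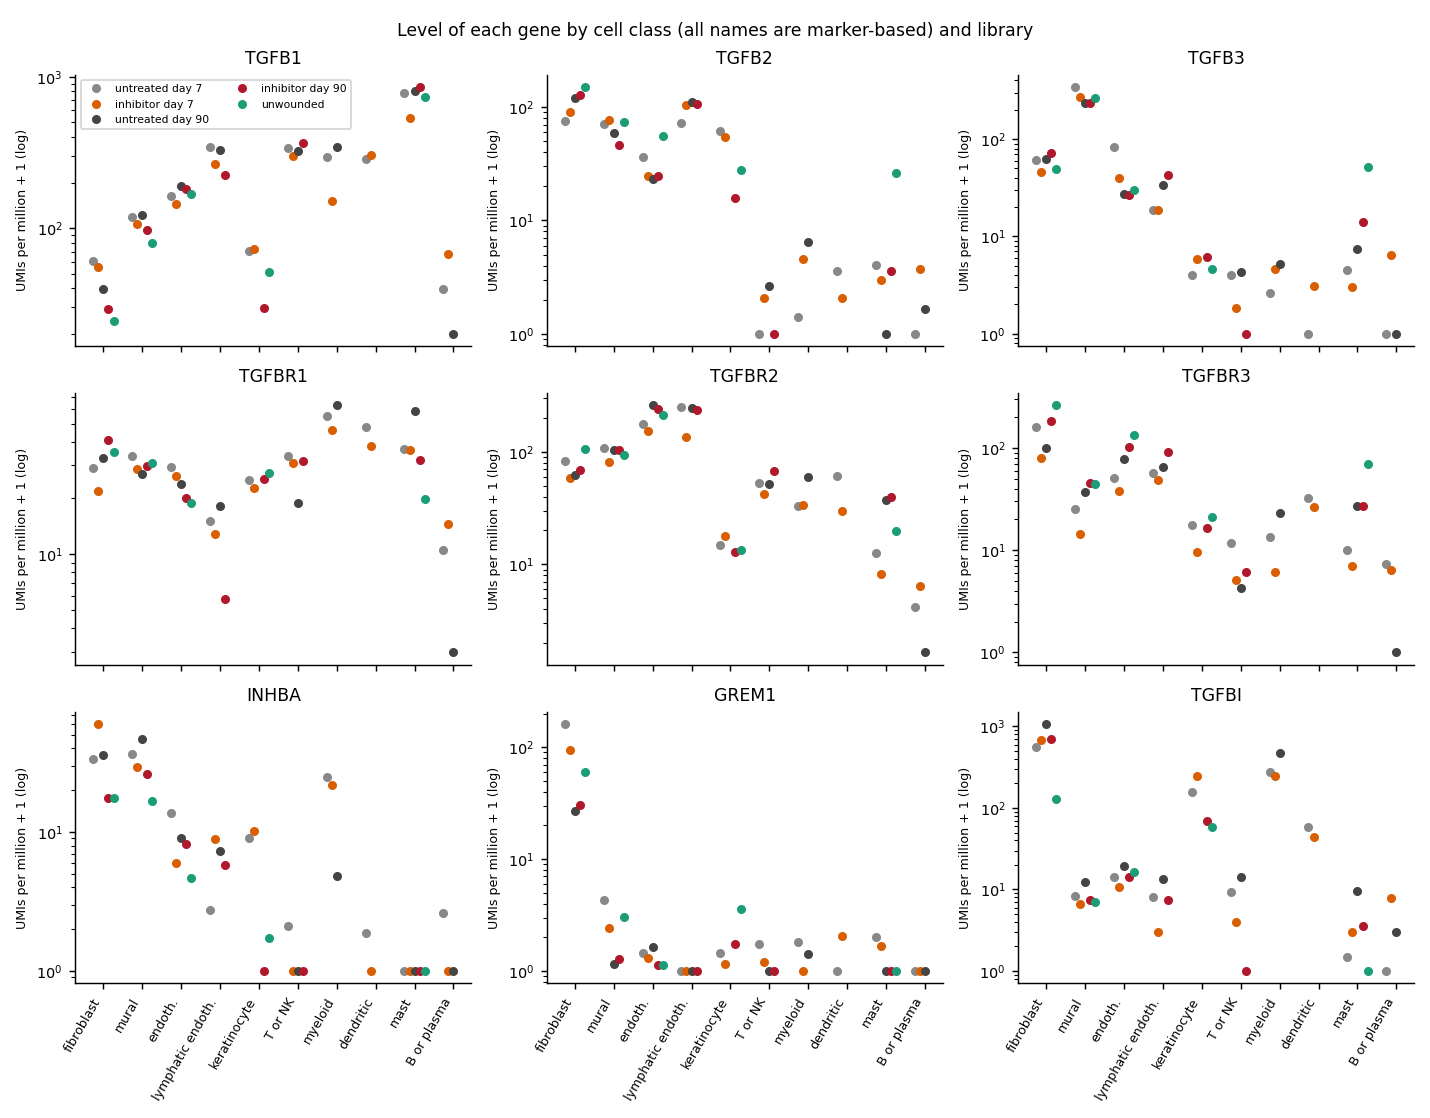
Level of each of the 9 genes (vertical axis, CPM plus 1, log scale) in 10 cell classes named by markers, with 1 point per library holding at least 50 cells of the class. TGFB1 is highest in mast-like cells, TGFB3 in the mural class, and GREM1 is highest in fibroblast-like cells of every library, at 25.7 CPM or more against at most 3.29 CPM in the other classes drawn.

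Among the receptors, and among classes with at least 50 cells in a library, TGFBR2 was highest in the endothelial classes, with 151 to 256 CPM in blood endothelial-like and 134 to 248 CPM in lymphatic endothelial-like cells. Fibroblast-like cells held 57.8 to 105.7 CPM of TGFBR2, and keratinocyte-like cells 11.9 to 16.9 CPM. TGFBR1 was low throughout, from 1.97 CPM in B or plasma-like to 62.0 CPM in myeloid-like cells, and in fibroblast-like cells it lay between 20.9 and 40.0 CPM. TGFBR3 was highest in fibroblast-like cells, at 78.3 to 259.7 CPM, with 36.8 to 133.2 CPM in blood endothelial-like and 47.4 to 91.0 CPM in lymphatic endothelial-like cells. In mural-like cells TGFBR3 lay between 13.5 and 44.8 CPM.

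GREM1 was all but restricted to fibroblast-like cells, where it lay between 25.7 and 159.9 CPM. Among the other classes with at least 50 cells in a library, the highest value was 3.29 CPM, in mural-like cells of the untreated graft of day 7. In that library 40.5% of fibroblast-like cells had a GREM1 UMI against 0.216% of keratinocyte-like cells, at median depths of 11481 and 12376 UMIs per cell. With each cell thinned to 2000 UMIs the shares were 21.3% and 0.238%. INHBA was read mainly in fibroblast-like (16.7 to 58.9 CPM) and mural-like cells (15.6 to 45.6 CPM), and in myeloid-like cells it lay at 23.8 and 20.9 CPM in the untreated and inhibitor grafts of day 7. Mast-like cells had no INHBA UMI in any library. TGFBI was highest in fibroblast-like cells of the grafts, and was also read in myeloid-like cells (242 to 471 CPM) and keratinocyte-like cells (58.0 to 243 CPM).

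Since cell classes differed in number, the classes that supplied a gene's UMIs differed between libraries. Fibroblast-like cells held 93.2% to 98.6% of GREM1 UMIs in every library. For TGFB1 the leading source was the endothelial-like class in 4 of 5 libraries, with 24.1% of UMIs in the untreated graft of day 7, 43.7% at day 90, 65.5% in the inhibitor graft of day 90 and 66.5% in unwounded skin. The endothelial-like cluster that gave the most of them (1107, 1721, 2058 and 569 UMIs in that order) was led by GPIHBP1 and MYCT1. It held more CPM of mural than of endothelial markers (6126 against 4893). The order of sources without that cluster was not computed. In the inhibitor graft of day 7 the mural-like class supplied most TGFB1 UMIs (25.3%). For TGFB3, mural-like cells supplied 63.1% of UMIs in the untreated and 79.4% in the inhibitor graft of day 7, 34.5% and 50.1% in the day 90 pair, and 55.1% in unwounded skin. In the untreated graft of day 90 fibroblast-like cells supplied more of the TGFB3 UMIs (53.6%), in a library where they also held 54.1% of all UMIs. TGFBI came from fibroblast-like cells for 79.6% to 95.8% of its UMIs in the grafts and 51.5% in unwounded skin, where keratinocyte-like cells gave 20.0%. These shares depend on how many cells of each class the digestion released.

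**Figure D2:**
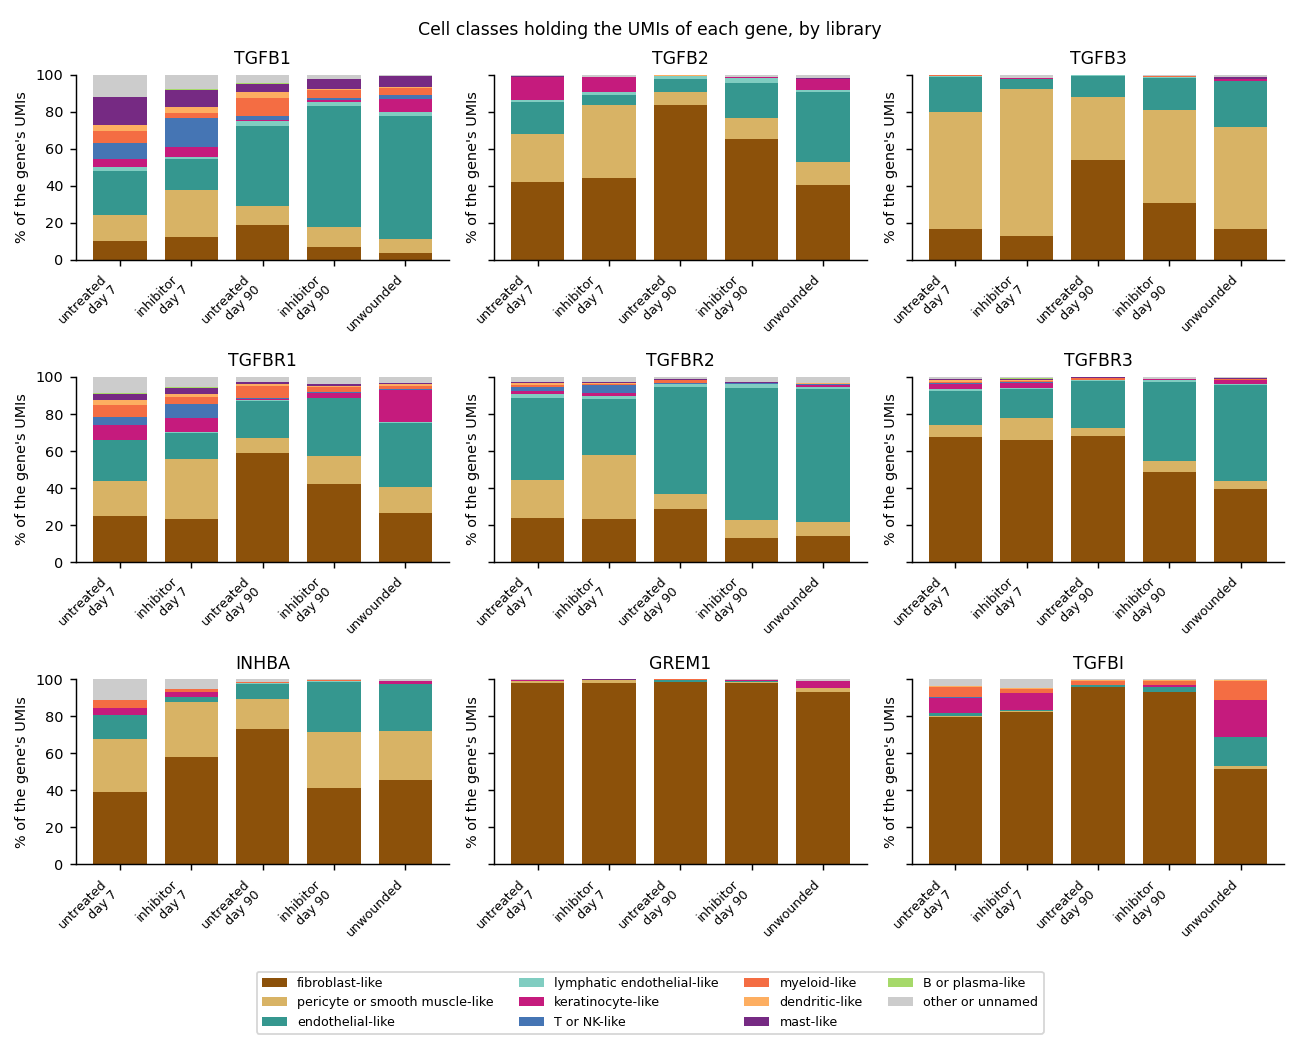
Share of each gene's UMIs held by each cell class (vertical axis, percent of the gene's UMIs in that library, stacked bars), for the 5 libraries. GREM1 comes almost wholly from fibroblast-like cells in all 5 libraries, whereas the share of TGFB1 from endothelial-like cells runs from 16.4% to 66.5%.

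In fibroblast-like cells, the ligand TGFB1 stood at 59.9, 54.4, 38.5, 28.3 and 23.2 CPM in the untreated and inhibitor grafts of day 7, the untreated and inhibitor grafts of day 90, and unwounded skin. Both grafts of day 7 were above both grafts of day 90, and the counting intervals of the top pair overlapped, as did those of the bottom pair. TGFB2 ran the other way, with 75.1, 89.2, 118.3, 127.5 and 149.7 CPM in the same order of libraries, lowest at day 7 and highest in unwounded skin with no overlap between neighbouring intervals. TGFB3 varied least of the ligands over libraries, at 60.3, 45.1, 62.2, 70.7 and 47.7 CPM, a highest-to-lowest ratio of 1.57.

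Of the receptors in fibroblast-like cells, TGFBR3 stood at 159.1, 78.3, 99.3, 180.8 and 259.7 CPM in the same order. Unwounded skin was highest and the inhibitor graft of day 7 lowest, 3.31-fold apart. TGFBR2 was at 81.7, 57.8, 61.3, 67.4 and 105.7 CPM, again highest in unwounded skin and lowest in the inhibitor graft of day 7, with overlapping intervals from one to the next among the lowest 3 libraries. TGFBR1 stood at 28.0, 20.9, 32.0, 40.0 and 34.4 CPM, and the intervals of the upper 4 libraries overlapped from one to the next.

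INHBA in fibroblast-like cells stood at 32.5, 58.9, 35.0, 16.7 and 16.7 CPM. The inhibitor graft of day 7 was highest, the untreated grafts at either day were next with overlapping intervals, and the inhibitor graft of day 90 overlapped with unwounded skin. GREM1 was at 159.9, 94.3, 25.7, 29.7 and 59.5 CPM, a 6.21-fold range with the day 7 grafts above and the day 90 grafts below unwounded skin. TGFBI was at 560, 673, 1068, 708 and 127 CPM, with all 4 grafts above unwounded skin and the untreated graft of day 90 highest.

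**Figure D3:**
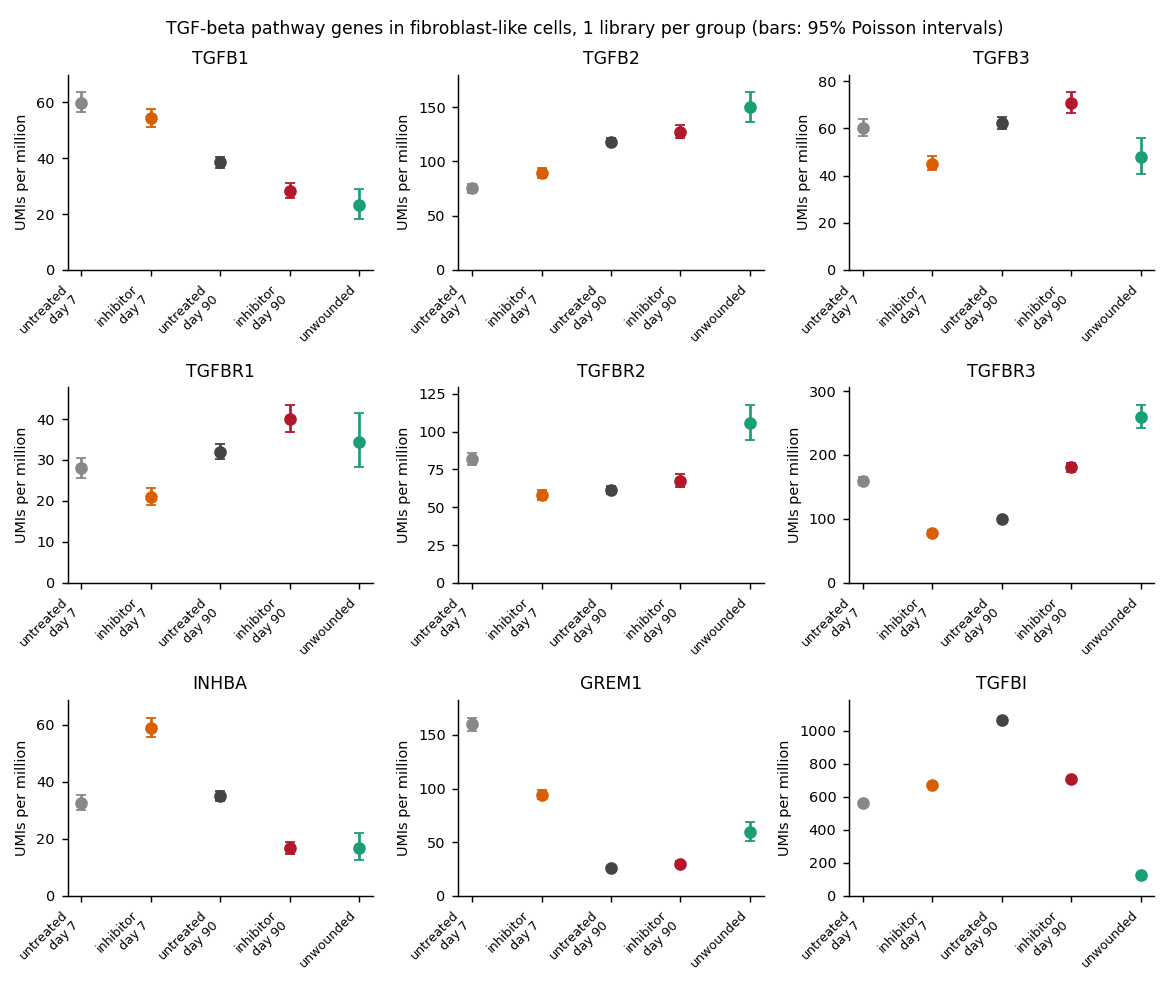
Level of the 9 genes in fibroblast-like cells (vertical axes, CPM, from 0), 1 point per library with its 95% Poisson interval for counting error. TGFBI and GREM1 span the widest range over the 5 libraries (8.43-fold and 6.21-fold), and TGFB3 the narrowest (1.57-fold).

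The FAK inhibitor graft was set against the untreated graft first at day 7, in fibroblast-like cells. With 1 library per group, the inhibitor, its hydrogel and differences between libraries or animals cannot be told apart. The co-receptor TGFBR3 was lower in the inhibitor graft, 78.3 against 159.1 CPM, 2.03-fold (interval 1.91 to 2.16). The BMP antagonist GREM1 was also lower, 94.3 against 159.9 CPM, 1.70-fold (1.60 to 1.80), whereas the activin subunit INHBA was 1.81-fold higher, at 58.9 against 32.5 CPM from 1167 and 585 UMIs. The other 6 genes stayed under 1.5-fold, with log2 ratios from -0.50 for TGFBR2 to 0.27 for TGFBI. Thus 3 of the 9 genes met the 1.5-fold rule, where 8.98% of all 6579 genes above the floor did. The median log2 ratio was -0.42 for the 9 genes and -0.06 for all genes.

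Fibroblast-like cells fell into 5 clusters, named here by the genes that led them: an FBLN1, C4A and TNXB cluster, a GREM1, F13A1 and C3 cluster, an IL11 and MMP13 cluster, a THBS4, COL11A1 and SFRP2 cluster, and a small cycling cluster led by UBE2C and TOP2A. At day 7 the GREM1 cluster and the IL11 cluster held most fibroblast-like cells, 51.3% and 27.6% in the untreated graft and 44.5% and 42.6% in the inhibitor graft. In the untreated graft TGFBR3 was at 249.0 CPM in the GREM1 cluster but 34.4 CPM in the IL11 cluster, and INHBA was at 20.0 and 63.9 CPM. Within each of the 4 clusters with at least 20 cells in both libraries, TGFBR3 and GREM1 were lower and INHBA higher in the inhibitor graft. The log2 ratios ran from -1.41 to -0.29 for TGFBR3 (2 of 4 clusters past 1.5-fold), from -0.72 to -0.09 for GREM1 (1 of 4) and from 0.38 to 2.43 for INHBA (2 of 4). With the clusters weighted equally the class ratio was -0.68 for TGFBR3, -0.52 for GREM1, which no longer met the rule, and 1.01 for INHBA. When each library was clustered alone, none of these 3 genes met the rule (-0.44, -0.21 and 0.34), and TGFB1 did instead (-0.81).

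**Figure D4:**
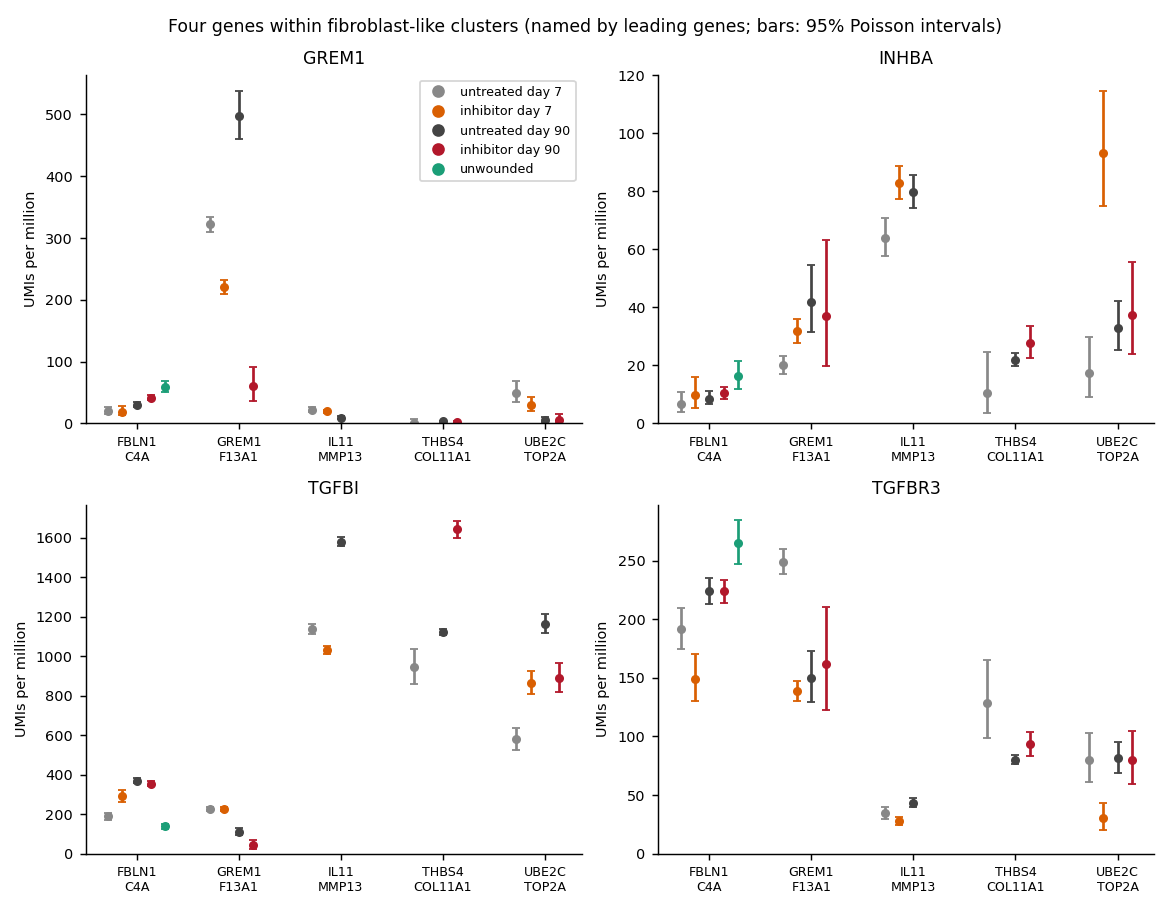
Level of GREM1, INHBA, TGFBI and TGFBR3 (vertical axes, CPM) in the 5 fibroblast-like clusters, labelled by 2 leading genes each, with 1 point per library holding at least 20 cells of the cluster and 95% Poisson intervals. INHBA and TGFBI are high and TGFBR3 low in the IL11 and MMP13 cluster, which makes up 27.6% and 42.6% of fibroblast-like cells in the day 7 grafts, 18.4% in the untreated graft of day 90 and 0.6% in the inhibitor graft of day 90.

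TGFBR3 was also read in other classes at day 7. In T or NK-like, keratinocyte-like and myeloid-like cells it reached the floor of 10 CPM only through the untreated graft, so that its lower values there are descriptions and no support for a drop shared across classes. In endothelial-like, lymphatic endothelial-like and dendritic-like cells it stayed under 1.5-fold (log2 ratios -0.45, -0.25 and -0.28). In mural-like cells it stood at 13.5 against 24.2 CPM, 1.79-fold lower (1.51 to 2.11), and was the only 1 of 7 genes tested there to meet the rule, which 10.6% of all genes did. Its log2 ratio lay between -0.74 and -0.56 in the 4 clusters of that class, 2 of them past the rule. In keratinocyte-like cells TGFBR3 stood at 8.61 against 16.5 CPM, and TGFBI was 1.54-fold higher (1.42 to 1.67), at 242.9 against 157.6 CPM. That made 2 of 6 genes tested in keratinocyte-like cells, beside 12.8% of all genes. In T or NK-like cells 1 of 4 genes met the rule, TGFBR3 at 4.09 against 10.9 CPM (19 and 29 UMIs), beside 11.1% of all genes.

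In myeloid-like cells at day 7, TGFB1 was 1.95-fold lower in the inhibitor graft (1.67 to 2.29), at 150.8 against 294.5 CPM from 209 and 730 UMIs. TGFBR3 (5.05 against 12.5 CPM, 7 and 31 UMIs) was the other of 2 out of 6 genes tested in that class, beside 21.2% of all genes. The class held 151 cells in the inhibitor and 274 in the untreated graft. An unnamed cluster that also scored best as myeloid, with 362 and 373 cells there, was not counted, and the ratios were not recomputed with it. In mast-like cells TGFB1 stood at 536 against 781 CPM, a log2 ratio of -0.54 that stayed under 1.5-fold, and 1 of 3 genes tested met the rule, beside 19.5% of all genes. That gene was TGFBR2, at 7.29 against 11.6 CPM, with an interval of the ratio (0.278 to 1.35) that includes no difference. In mast-like cells TGFBR2 reached the floor of 10 CPM only through the untreated graft. TGFBR2 was tested in 9 classes at day 7, was lower in 3 and higher in 0, and lay above 0 in 2 (up to 0.28, in keratinocyte-like cells). The other classes where it was lower were dendritic-like (28.8 against 60.4 CPM, 27 and 70 UMIs), where 27.1% of all genes met the rule, and lymphatic endothelial-like cells (134.3 against 247.6 CPM, 68 and 141 UMIs), where 23.2% did. TGFB1 was tested in 10 classes, with myeloid-like cells the 1 lower and B or plasma-like cells the 1 higher, at 66.3 against 38.4 CPM from 49 and 24 UMIs, where 31.6% of all genes met the rule.

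In endothelial-like cells at day 7, 2 of 8 genes tested met the rule, both lower in the inhibitor graft, beside 8.78% of all genes. For 1 of them, INHBA, the floor of 10 CPM was reached only through the untreated graft, so that lower was the only call open to it. TGFB3 stood at 38.5 against 81.6 CPM, 2.12-fold lower (1.89 to 2.38), and INHBA at 4.96 against 12.6 CPM, 2.55-fold lower (1.85 to 3.56). Both came mostly from 1 of the 5 endothelial-like clusters, which held 1100 of the 1273 TGFB3 UMIs and 166 of the 197 INHBA UMIs in the untreated graft. That cluster had a median of 23185 UMIs per cell and held 6126 CPM of mural against 4893 CPM of endothelial markers, and it made up 20.9% of endothelial-like cells in the untreated and 9.9% in the inhibitor graft. Within it TGFB3 stood at 167.1 and 110.4 CPM and INHBA at 25.2 and 17.4 CPM. In the CXCL9 and CSF3 cluster, which held 51.1% and 67.7% of the class, TGFB3 went the other way, at 2.66 CPM in the untreated and 10.3 CPM in the inhibitor graft (13 and 52 UMIs). With the cluster that also held mural markers left out, the TGFB3 log2 ratio of the class went from -1.08 to -0.21. The INHBA ratio without that cluster was -1.53, as large as with it, but the INHBA levels fell under the floor. The part of doublets in these values was not tested.

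At day 90 the fibroblast-like cells gave the opposite order for TGFBR3 and INHBA. TGFBR3 was 1.82-fold higher in the inhibitor graft (1.73 to 1.91), at 180.8 against 99.3 CPM. INHBA was 2.09-fold lower (1.82 to 2.41), at 16.7 against 35.0 CPM, and TGFBI was 1.51-fold lower (1.48 to 1.54), at 708 against 1068 CPM. Again 3 of 9 genes met the rule, beside 11.7% of all genes, and the other 6 lay between -0.44 for TGFB1 and 0.32 for TGFBR1 on the log2 scale.

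Different fibroblast-like clusters made up the class in the day 90 grafts. The FBLN1 cluster held 26.4% of the class in the untreated and 74.2% in the inhibitor graft, the THBS4 cluster 47.7% and 18.6%, and the IL11 cluster 18.4% and 0.6%. TGFBR3 was at 223.7 CPM in the FBLN1 cluster of both day 90 grafts, and at 80.3 and 93.3 CPM in the THBS4 cluster of the untreated and inhibitor grafts. INHBA was at 79.6 CPM in the IL11 cluster of the untreated graft, against 8.6 and 10.3 CPM in the FBLN1 cluster of the untreated and inhibitor grafts. Within the 4 clusters with at least 20 cells in both day 90 grafts, TGFBR3 ratios lay between -0.03 and 0.22 and INHBA ratios between -0.17 and 0.34 on the log2 scale, with 0 of 4 past 1.5-fold for either gene. The IL11 cluster, with the highest INHBA level, was not compared, since it had 387 and 5 cells. With clusters weighted equally TGFBR3 came to 0.06, INHBA to 0.10 and TGFBI to 0.08, so that the latter pair changed sign. The cells were assigned to these clusters from the expression of other genes in the same cells.

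The GREM1 cluster was small at day 90, with 93 cells in the untreated and 32 in the inhibitor graft. GREM1 itself stood at 497.7 CPM in those 93 cells and 59.7 CPM in those 32 cells, a log2 ratio of -3.06, while over all fibroblast-like cells it lay at 25.7 and 29.7 CPM. TGFBI in the same cluster stood at 110.5 and 42.7 CPM. Those 32 cells held 21 GREM1 UMIs in all, and with clusters weighted equally GREM1 met the rule as lower in the inhibitor graft.

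In mural-like cells at day 90, 2 of 8 genes tested were lower in the inhibitor graft, beside 7.12% of all genes. INHBA stood at 25.3 against 45.6 CPM, 1.80-fold lower (1.49 to 2.18). Its log2 ratio was below 0 in all 4 clusters (-2.67 to -0.33) and past 1.5-fold in 2. Those were the CA4 and CXCL10 cluster (2 against 23 UMIs) and the cycling UBE2C and CENPF cluster (33.3 against 100.7 CPM), with 5.5% and 7.9% of the class in the untreated graft. The larger CCL19 and ITIH4 clusters stayed under 1.5-fold, at 25.1 against 37.4 CPM and 25.6 against 32.2 CPM. TGFBI stood at 6.46 against 11.4 CPM, from 45 and 76 UMIs. TGFBI reached the floor of 10 CPM only through the untreated graft, so that lower was the only call open to it. In endothelial-like cells at day 90, 0 of 7 genes tested met the rule, beside 2.1% of all genes, and TGFBR3 came nearest with a log2 ratio of 0.41.

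Grafts were then set against unwounded skin, a reference shared by the 3 comparisons that follow, so that their values are not independent. In fibroblast-like cells of the untreated graft of day 7, 6 of 9 genes met the rule, beside 44.9% of all genes. TGFBI stood at 560 against 127 CPM (log2 ratio 2.14). GREM1 was 2.69-fold (2.32 to 3.13), TGFB1 2.58-fold (2.04 to 3.30) and INHBA 1.94-fold (1.47 to 2.62) higher than in unwounded skin. TGFB2 was 1.99-fold (1.79 to 2.21) and TGFBR3 1.63-fold (1.51 to 1.76) lower. In the untreated graft of day 90, 6 of 9 genes met the rule, beside 38.6% of all genes. TGFBI was now 8.43-fold (7.65 to 9.32), INHBA 2.09-fold (1.59 to 2.80) and TGFB1 1.66-fold (1.31 to 2.12) higher, and TGFBR3 was 2.62-fold (2.42 to 2.82), GREM1 2.31-fold (1.97 to 2.70) and TGFBR2 1.72-fold (1.54 to 1.93) lower. The inhibitor graft of day 90 had 3 of 9 genes past the rule, beside 24.8% of all genes: TGFBI was 5.59-fold higher (5.06 to 6.19), and GREM1 (29.7 against 59.5 CPM) and TGFBR2 (1.57-fold, 1.38 to 1.78) were lower.

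The FBLN1 cluster held 90.4% of fibroblast-like cells in unwounded skin, and was the only 1 with at least 20 cells there. Within it, GREM1 and INHBA were lower in the untreated graft of day 7 than in unwounded skin, at 20.4 against 58.8 CPM and 6.8 against 16.2 CPM (17 and 48 UMIs for INHBA), the reverse of the order over the whole class. TGFB1 (34.8 against 22.0 CPM) and TGFB2 (57.6 against 152.0 CPM) kept the direction of the class. In the day 90 grafts the same cluster held TGFBI at 369.5 CPM (untreated) and 354.6 CPM (inhibitor) against 137.8 CPM in unwounded skin. INHBA in the untreated graft of day 90 also changed direction within the cluster, at 8.6 against 16.2 CPM. TGFBI in the untreated graft of day 7 fell under 1.5-fold within the cluster, at 188.5 against 137.8 CPM. So did TGFB1 in the untreated graft of day 90 (25.4 against 22.0 CPM) and GREM1 in the inhibitor graft of day 90 (41.5 against 58.8 CPM). The receptors called in the class did not meet the rule within the cluster either. In the untreated graft of day 90 TGFBR3 stood at 223.7 against 265.1 CPM and TGFBR2 at 78.5 against 100.6 CPM. TGFBR2 stood at 74.9 CPM in the inhibitor graft of day 90, and TGFBR3 at 191.7 CPM in the untreated graft of day 7.

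In mural-like cells the untreated graft of day 7 differed from unwounded skin in 3 of 7 genes tested, beside 42.4% of all genes. INHBA (35.8 against 15.6 CPM) and TGFB1 (118.2 against 78.2 CPM) were higher, and TGFBR3 (24.2 against 43.4 CPM) was lower. At day 90 the untreated graft had 3 of 8 genes past the rule, beside 24% of all genes, with INHBA (45.6 CPM) and TGFB1 (120.6 CPM) again higher. Mural-like cells sat in different clusters, with the CA4 and CXCL10 cluster at 38.7% of the class in the untreated graft of day 7, 5.5% at day 90 and 9.1% in unwounded skin. Within the 3 clusters that could be compared, TGFB1 was past 1.5-fold in 0 at day 90 (log2 ratios 0.06 to 0.49), and at day 7 it was higher in 2 and lower in 1 (-0.60). INHBA was higher in 3 of 3 at day 90 and in 2 of 3 at day 7. The inhibitor graft of day 90 had 2 of 7, beside 12.6% of all genes, INHBA higher at 25.3 CPM and TGFB2 lower at 45.4 against 73.2 CPM. In endothelial-like cells 5 of 8 genes differed between the untreated graft of day 7 and unwounded skin, beside 37.3% of all genes. TGFB3 was at 81.6 against 28.8 CPM and TGFBR3 at 50.3 against 133.2 CPM there. The cluster that also held mural markers had 1100 TGFB3 UMIs in the graft and 225 in unwounded skin. It made up 20.9% and 13.0% of the class. Within that cluster TGFB3 stood at 167.1 against 72.7 CPM, and the part of doublets was not tested. TGFBR3 was lower in 4 of the 4 clusters compared. Against the same reference, 2 of 7 genes met the rule in endothelial-like cells of the untreated graft of day 90 (14.1% of all genes) and 1 of 7 in the inhibitor graft (7.14%). TGFB2 was lower in both, at 22.1 and 23.7 against 54.8 CPM.

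Over time, fibroblast-like cells of the untreated grafts differed between day 90 and day 7 in 5 of 9 genes, beside 23.2% of all genes. GREM1 was 6.21-fold lower at day 90 (5.78 to 6.68), TGFB1 1.56-fold (1.44 to 1.68) and TGFBR3 1.60-fold (1.53 to 1.68) lower, and TGFBI 1.91-fold (1.87 to 1.95) and TGFB2 1.58-fold (1.48 to 1.68) higher. Within the GREM1 cluster, which went from 51.3% to 4.4% of the class, GREM1 was higher at day 90 (497.7 against 322.0 CPM). Of the 5 clusters it was higher in 1 and lower in 2, the IL11 cluster (9.2 against 21.9 CPM) and the cycling cluster (5.3 against 49.3 CPM). The THBS4 cluster went from 2.3% to 47.7% of the class. Within the 5 clusters TGFBR3 was lower in 2 and lay above 0 in 3. TGFB1 was higher in 1 and lower in 2, and TGFB2 and TGFBI were each higher in 2 and lower in 1. With clusters weighted equally TGFBR3, TGFB2 and TGFBI no longer met the rule, while TGFB1 still did. In the inhibitor grafts 6 of 9 genes differed, beside 42.9% of all genes. INHBA was 3.52-fold (3.06 to 4.06), GREM1 3.17-fold (2.85 to 3.54) and TGFB1 1.92-fold (1.71 to 2.16) lower at day 90. All 3 receptors were above their day 7 level, TGFBR3 2.31-fold (2.17 to 2.46) and TGFBR1 1.91-fold (1.68 to 2.17), while TGFBR2 stayed under 1.5-fold at 67.4 against 57.8 CPM. TGFB3 was higher as well, at 70.7 against 45.1 CPM. The clusters that made up the class differed here too: the IL11 cluster went from 42.6% to 0.6% and the FBLN1 cluster from 10.0% to 74.2%. Within the 3 clusters that could be compared INHBA was lower only in the cycling cluster and lay above 0 in the other two (10.3 against 9.6 CPM and 37.0 against 31.7 CPM). TGFB1 was higher in 1, lower in 1 and under 1.5-fold in 1, and GREM1 was higher in 1 and lower in 2. TGFBR3 and TGFBR1 lay above 0 in 3 of 3 and met the rule in 2 each.

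In mural-like cells 1 of 8 genes differed in the untreated grafts, beside 23.9% of all genes, and 2 of 7 in the inhibitor grafts, beside 45% of all genes. Those 2 were TGFBR3, at 44.8 CPM at day 90 against 13.5 CPM at day 7, and TGFB2, at 45.4 against 76.1 CPM. Within the 4 mural-like clusters TGFBR3 was higher at day 90 in 4, whereas TGFB2 was lower in 2 and lay above 0 in 1. The CA4 and CXCL10 cluster went from 51.3% to 3.7% of the class and the cycling UBE2C and CENPF cluster from 25.4% to 3.4%. In endothelial-like cells 4 of 8 genes differed in the untreated grafts (23.6% of all genes) and 3 of 7 in the inhibitor grafts (34.6%). TGFBR3 was higher at day 90 in both, at 77.0 against 50.3 CPM and at 102.0 against 36.8 CPM. The CXCL9 and CSF3 cluster fell from 51.1% to 8.1% of endothelial-like cells in the untreated and from 67.7% to 2.2% in the inhibitor grafts. Within clusters, TGFBR3 was higher at day 90 in 5 of 5 in the inhibitor grafts, and in the untreated grafts in 2 of 5, with the CXCL9 cluster lower (30.8 against 66.0 CPM).

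Further genes of the pathway were followed in fibroblast-like cells through 6 lists with 83 measured genes: latency and activation, related ligands, related receptors, antagonists, SMADs with their nuclear regulators, and response genes. At day 7, 58 of the 83 were above the floor, and 2 were higher and 9 lower in the inhibitor graft, beside 8.98% of all genes. The median log2 ratio of the 58 was -0.25, against -0.06 for all genes. Of 10 latency and activation genes above the floor 3 were lower, LTBP3 at 22.0 against 50.8 CPM and LTBP4 at 12.5 against 27.7 CPM, which encode latent TGF-beta binding proteins, and LRRC32 at 11.2 against 22.6 CPM, which encodes GARP, a surface anchor of latent TGF-beta. Of 19 response genes 3 were lower, among them the matricellular CCN2 at 114.6 against 228.9 CPM and the matrix gene POSTN at 4331 against 7284 CPM. Among antagonists BAMBI, a decoy receptor, was higher (12.6 against 6.67 CPM) and FST, which encodes the activin-binding follistatin, was lower (20.2 against 31.4 CPM). BAMBI reached the floor of 10 CPM only through the inhibitor graft.

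At day 90, 58 of the listed genes were above the floor, and 9 were higher and 3 lower in the inhibitor graft, beside 11.7% of all genes. The FBLN1 cluster made up 26.4% of the class in the untreated and 74.2% in the inhibitor graft. The listed genes were not compared within clusters in this or the other comparisons. The 3 lower genes were all response genes, among them the contractile genes ACTA2, at 217.8 against 562.1 CPM, and TAGLN, at 753.7 against 1685 CPM. FST stood at 32.1 against 10.7 CPM and the BMP antagonist CHRDL1 at 31.8 against 18.3 CPM, both higher, and of the latency genes LTBP2 (23.2 against 13.3 CPM) and LRRC32 (31.1 against 18.6 CPM) were higher. The ligand gene BMP7 was at 16.1 against 3.94 CPM, and reached the floor only through the inhibitor graft. Summed mural markers in fibroblast-like cells, a list that includes ACTA2 and TAGLN, were 2536 CPM in the untreated and 1251 CPM in the inhibitor graft.

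Against unwounded skin, fibroblast-like cells of the untreated graft of day 7 had 15 pathway genes higher and 21 lower of 62 above the floor, where 44.9% of all genes met the rule. The matrix gene TNC stood at 465.5 against 24.5 CPM, ACTA2 at 351.5 against 19.5 CPM and the antagonist CHRDL1 at 6.56 against 92.7 CPM. At day 90 the untreated graft had 12 higher and 16 lower of 61, beside 38.6% of all genes, with TAGLN at 1685 against 52.7 CPM and FST at 10.7 against 106.9 CPM. The inhibitor graft had 11 higher and 14 lower of 60, beside 24.8% of all genes, with TAGLN at 753.7 CPM and FST at 32.1 CPM.

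The genes whose level over classes and libraries was most like that of each of the 9 were found by Pearson correlation of log2(CPM + 10) over 40 sums of a class in a library, among 6065 genes. These points share libraries and classes and are not independent, so the values are descriptions. GREM1 was most like VEGFD (r = 0.98), CCBE1 (0.97) and COL26A1 (0.97). TGFB1 followed RGS19 (0.95), GRK2 (0.90) and DDIT4 (0.89), and TGFB3 followed CACNA2D1 (0.93), C11orf1 (0.93) and MRGPRF (0.92). TGFB2 was most like COPZ2 (0.93), TEAD1 (0.92) and IGFBP5 (0.92). TGFBR2 was nearest to KLF2 (0.91), LATS2 (0.90) and CEP85L (0.89), TGFBR3 to ZCCHC24 (0.84), MMP2 (0.84) and FBLN2 (0.83), and TGFBR1 to ATP6V1G1 (0.78), CCNG1 (0.77) and AGPS (0.75). INHBA was most like GPM6B (0.89), GALK2 (0.88) and PRRX2 (0.86), and TGFBI most like C3 (0.87), DNM1 (0.85) and THBS2 (0.84). Among the 9 genes themselves the highest values were 0.74 for TGFB2 with TGFBR3 and 0.71 for TGFB2 and for INHBA, each with TGFB3.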

How the data were processed

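Single-cell RNA of 5 pig skin libraries was measured with 10x Genomics Single Cell 3' v3 chemistry. The deposited matrices hold whole-number UMI counts per gene and barcode that the authors made with Cell Ranger, per the submitters' processing notes, which also name Seurat 3.1.1. The sources used here do not give the Cell Ranger version, genome build or annotation.

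From these counts, cells with at least 500 genes and at most 25% mitochondrial UMIs (13 genes) were kept, and the top Scrublet scores were removed at 0.8% per 1000 cells, because its own threshold marked 0 cells in 2 libraries. All libraries were clustered together (Scanpy 1.11.5, 2000 variable genes without the 9 genes reported, 30 components, 20 neighbours, Leiden resolution 1). Clusters were named from fixed markers at a score of at least 0.8, 3 markers, 50% of measured markers raised 1.5-fold and a lead of 0.5. Names whose top 10 genes went against them were withheld. Rules added after the clusters were seen also withheld names with no own marker among those genes and a second class above 50% of the best score, and required 5 measured markers. 3 clusters (992 cells) stayed unnamed. Cell types may differ from the authors'.

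UMIs were summed by class (at least 50 cells) or cluster (at least 20) and library. Intervals are exact Poisson, Clopper-Pearson and conditional binomial at 95%, and cover counting error only. The 1.5-fold rule and the intervals of ratios were checked on simulated counts. These were Poisson draws from a fibroblast-like profile pooled over both libraries, with 2-fold changes planted. They hold no spread between libraries or animals and no shift in clusters, so the check covers counting error only. Named genes are the 9 genes, the 3 largest ratios past 1.5-fold of each pathway list in fibroblast-like cells (a selection is printed), and the 3 most alike genes per gene. The 9 genes and the lists were chosen with earlier results of these data known. Symbols were available for 15351 of 20286 identifiers.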

Additional observations from a re-analysis of the deposited data

Results flagged for a closer look

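In fibroblast-like cells TGFBR3 was lower in the FAK inhibitor graft at day 7 (log2 ratio -1.02) and higher at day 90 (0.86), a difference of -1.89 between the days. INHBA gave the opposite order, higher at day 7 (0.86) and lower at day 90 (-1.06), a difference of 1.92. Both were singled out because the 2 time points lie past 1.5-fold on opposite sides. With 1 library per group the difference between days was not tested. Within the 4 fibroblast-like clusters with at least 20 cells in both day 90 grafts neither gene differed by 1.5-fold.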

How the results depend on the processing

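Counts of the 9 genes past 1.5-fold were recomputed under 16 settings (a further 1, thinning, bears on shares of cells), 2 of them (shared barcodes left out, 1 endothelial-like cluster left out) chosen after seeing the data. Of 167 recomputed counts 138 stayed within 1.5 times. They cover every fibroblast-like comparison but, in pericyte or smooth muscle-like and endothelial-like cells, only inhibitor against untreated grafts; the calls of these 2 classes against unwounded skin and over time were not recomputed. Of the 37 called ratios covered, all 37 kept their sign in every setting that gave them except equal weighting of clusters, where 6 turned: in fibroblast-like cells INHBA (0.10) and TGFBI (0.084) for the inhibitor at day 90, INHBA (-1.25) and GREM1 (-1.53) for the untreated graft at day 7 against unwounded skin, INHBA (-0.92) for the untreated graft at day 90 against unwounded skin, and GREM1 (0.40) for untreated day 90 against day 7. That weighting leaves out clusters with under 20 cells in either library. Against unwounded skin only the FBLN1 cluster remained, so those values are the ratios within that cluster.

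Counts of genes past the rule moved as follows. For the inhibitor in fibroblast-like cells at day 7 (3) and day 90 (3), each became 1 with each library clustered alone and 1 under a 2-fold rule, and day 90 became 1 with equal weighting. For the untreated graft at day 7 against unwounded skin the 2-fold rule gave 3 (6), and for the inhibitor graft at day 90 against unwounded skin the mean of per-cell CPM gave 1 (3). For untreated day 90 against day 7 (5), centring on the median ratio gave 3, the 2-fold rule 1 and equal weighting 2, and for the inhibitor grafts over time (6) the last 2 settings gave 3 each. In pericyte or smooth muscle-like cells at day 7 (1), the stricter cell filter, the looser filter, kept doublets and no floor each gave 2, separate clustering 4, and a floor of 50 CPM and the 2-fold rule each 0. At day 90 (2) the floor of 50 CPM and the 2-fold rule gave 0 and equal weighting 1. In endothelial-like cells at day 7 (2) the floor of 50 CPM gave 1, and equal weighting and leaving out the cluster with mural markers gave 0. At day 90 (0) the stricter filter, separate clustering, no floor and equal weighting gave 1 each. The cause was not tested.

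TGFBI at day 90 in fibroblast-like cells, at 1.51-fold, was called in 9 of 15 settings. Leaving out replicates was not possible with 1 library per group. No paired analysis was possible because no group had more than 1 library. Depth limits values that rest on few UMIs, such as TGFBR3 in myeloid-like cells (7 and 31 UMIs).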

Other observations

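Some cells outside the comparisons also held the genes. An unnamed cluster of 818 cells, mostly from the day 7 grafts, had SPP1, ARG1 and S100A8 among its leading genes and scored best as myeloid. It held TGFB1 at 298.6 CPM, TGFBI at 164.8 CPM and INHBA at 38.0 CPM, the last of these against 14.4 CPM in the myeloid-like cluster. Schwann-like cells, 150 over all libraries and fewer than 50 in each, held TGFBR2 at 369.8 CPM and TGFBR3 at 97.2 CPM. In the 84 glandular epithelial-like cells TGFB1 lay at 17.4 CPM and TGFBR2 at 54.9 CPM.

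The pathway lists were also read in the vascular classes. In endothelial-like cells 3 of 57 genes above the floor were higher and 13 lower in the inhibitor graft at day 7, and 1 higher and 5 lower of 57 at day 90, where 8.78% and 2.1% of all genes met the 1.5-fold rule. Pericyte or smooth muscle-like cells had 2 higher and 6 lower of 55 at day 7, and 1 higher and 7 lower of 58 at day 90, beside 10.6% and 7.12% of all genes.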
